A study of Drosophila melanogaster with 2 samples.

Results

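The 8 Hox genes of Drosophila melanogaster were taken by name: lab, pb, Dfd, Scr and Antp of the Antennapedia complex and Ubx, abd-A and Abd-B of the bithorax complex, out of 13945 protein-coding genes on the 6 major chromosome arms. Every ChIP-seq summit between the outermost ends of lab and Antp, and between the outermost ends of Ubx and Abd-B, was counted, whether it lay in a Hox gene or between them. This gave 36 of the 6075 summits of the thresholded list, 160 of the 30000 of the pooled list, 182 of the 30000 of replicate 2 and 162 of the 30000 of replicate 3.

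The data are ChIP-seq peak lists for CG8388, made from whole embryos 0 to 14 h old with both sexes pooled. The embryos came from a transgenic line, strain CG8388-GFP, which stably expresses CG8388 with GFP at its C-terminus, and chromatin was sheared by sonication and precipitated with an antibody against GFP. Both libraries, labelled replicates 2 and 3, belong to that single group, so the study holds no second genotype, age or treatment. No control library was analysed here, and a whole-embryo peak does not tell which cells carried the protein. The pooled list draws on both replicates, the thresholded list holds its 6075 highest peaks by the authors' signal value, and the signal, whose scale is not stated, was used to rank peaks within a list. Read totals are not part of the lists, so the depth behind a peak is unknown. Intervals given below are 95% intervals for counting error only, and neighbouring peaks of a locus are not independent.

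Hox genes encode homeodomain transcription factors that give segments along the head-to-tail axis their identity, and in flies they lie in order of their domains of action. Gap and pair-rule proteins set where each gene is first active, and Polycomb and Trithorax group proteins then hold it off or on. The genes are spread over long introns and intergenic stretches rich in enhancers, and in the bithorax complex insulators and non-coding RNA genes divide the sequence into segment-specific regulatory domains.

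The sequences under the summits are shown first, since the positions and base composition described below refer to them. Each window is 101 bp long and centred on a summit, 5′ to 3′ on the plus strand of dm6, with letters from the RefSeq copy of Release 6, and capitals mark its longest run of A and T only. A window stands for the highest thresholded peak of a Hox gene span, or, where the span had none, of an interval beside it. The window of the thresholded summit nearest to a Hox transcription start site (TSS), at Dfd, was added.
lab intron: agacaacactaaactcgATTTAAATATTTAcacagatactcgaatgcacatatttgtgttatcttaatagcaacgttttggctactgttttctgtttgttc
pb intron: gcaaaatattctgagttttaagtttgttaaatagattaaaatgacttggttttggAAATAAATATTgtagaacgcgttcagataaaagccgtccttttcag
Between pb and Dfd: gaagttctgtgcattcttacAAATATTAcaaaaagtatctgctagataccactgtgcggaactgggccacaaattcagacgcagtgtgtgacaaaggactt
Dfd promoter: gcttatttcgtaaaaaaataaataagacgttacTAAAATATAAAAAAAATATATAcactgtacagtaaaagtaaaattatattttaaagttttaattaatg
Between Scr and Antp: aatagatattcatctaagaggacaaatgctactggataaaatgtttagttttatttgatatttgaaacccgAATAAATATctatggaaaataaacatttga
Antp span: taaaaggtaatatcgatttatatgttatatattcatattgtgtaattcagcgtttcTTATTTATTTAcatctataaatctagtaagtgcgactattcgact
Ubx intron: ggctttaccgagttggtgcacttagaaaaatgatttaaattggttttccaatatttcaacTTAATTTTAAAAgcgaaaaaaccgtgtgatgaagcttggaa
Between abd-A and Abd-B: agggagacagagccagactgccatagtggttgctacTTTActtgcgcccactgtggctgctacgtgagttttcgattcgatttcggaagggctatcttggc
Abd-B intron: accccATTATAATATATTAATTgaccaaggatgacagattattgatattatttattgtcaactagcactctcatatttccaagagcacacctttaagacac

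The runs in capitals were 13 bp at the lab summit, 11 bp at pb, 8 bp between pb and Dfd, 22 bp at the Dfd promoter, 9 bp between Scr and Antp, 11 bp in Antp, 12 bp in Ubx, 4 bp between abd-A and Abd-B and 17 bp in Abd-B. The windows are thus not alike: the Dfd promoter window had a GC content of 15.8%, and the window between abd-A and Abd-B one of 52.5%. Across all 36 summits of the complexes, GC content was 32.3% ± 11.0 (SD, n = 36 summits), against 43.7% ± 10.5 in windows of the same length centred 400 bp to each side. The summit was lower than its own flanks at 27 of 36 sites. For the 1405 thresholded summits of arm 3R, which carries both complexes, the values were 31.6% ± 9.33 at the summits and 44.6% in the flanks, with 83.4% of summits lower. All bases of the complexes have a GC content of 41.5%, and those of 3R one of 42.6%. The median longest A/T run was 11 bp in the complexes and 10 bp on 3R. The longest, 30 bp, lay at a summit in lncRNA:bxd, a non-coding RNA gene upstream of Ubx.

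The complexes as wholes held thresholded summits at a density near that of the arm. The Antennapedia complex, 3R:6661427-6999228 and 337.8 kb long, held 20, or 0.0592 per kb (interval 0.0362 to 0.0914). The bithorax complex, 3R:16656623-16972236 and 315.6 kb long, held 16, or 0.0507 per kb (0.029 to 0.0823). Arm 3R held 1405 over its whole length, or 0.0438 per kb, which lies inside both intervals. Without the first 4 Mb of the arm, its centromere-proximal part, the arm's density was 0.05 per kb. In the pooled list the Antennapedia complex held 83 summits and the bithorax complex 77, at 0.246 and 0.244 per kb against 0.208 on the arm. Replicate 2 listed 93 and 89 summits in the complexes, at 0.275 and 0.282 per kb against 0.214 on the arm. Replicate 3 listed 90 and 72, at 0.266 and 0.228 per kb against 0.209. Each complex was thus above the arm in all 4 lists, by ratios between 1.09 and 1.35. Among the 6075 highest peaks of a single replicate, the Antennapedia complex held 24 in replicate 2 and 15 in replicate 3, so its ratio to the arm was 1.65 and 1.01. The bithorax complex held 15 and 18. When the share of bases under thresholded peaks was counted in place of summits, the Antennapedia complex had 2.0%, the bithorax complex 1.31%, both together 1.66% and the arm 1.34%.

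**Figure D1:**
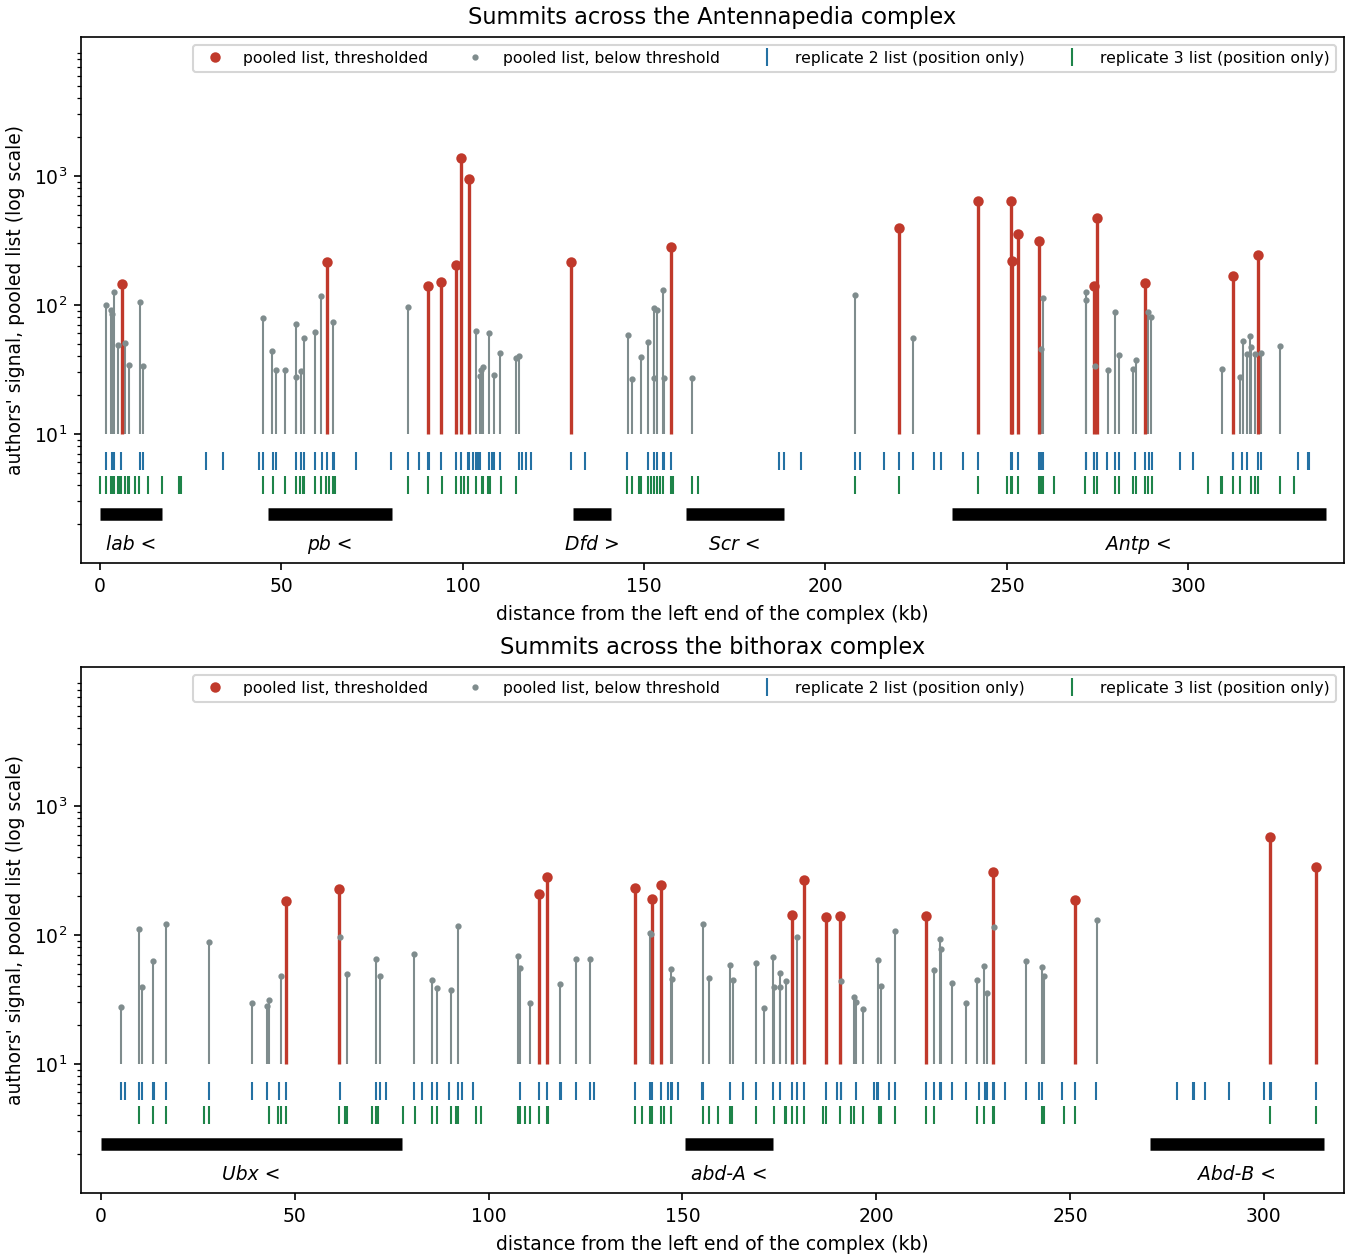
Summits of the 4 lists across the Antennapedia complex (upper panel) and the bithorax complex (lower panel). Stems give the authors' signal in the pooled list on a log scale against distance from the left end of the complex in kb, red for thresholded and grey for lower peaks, ticks give summit positions in each replicate, and black bars are Hox gene spans with their direction of transcription. The highest stems stand between pb and Dfd, and the widest space without a red stem lies across Scr.

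Along the map of summits, thresholded peaks were unevenly spread: 16 of 36 lay within a Hox gene span and 20 between spans. Among the head genes, lab, which acts in the most anterior Hox segment and in the midgut, had 1 thresholded summit in 17.2 kb. Its lists read 10 summits pooled, 6 in replicate 2 and 14 in replicate 3. The gene pb, which specifies adult mouthparts, had 1 thresholded, 11 pooled, 12 replicate 2 and 12 replicate 3 summits in 34.3 kb. Dfd, which specifies the mandibular and maxillary segments, had no thresholded or pooled summit inside its 10.6 kb, 1 in replicate 2 and 0 in replicate 3. Scr, which acts in the labial segment and prothorax, had 0 thresholded, 1 pooled, 1 replicate 2 and 2 replicate 3 summits in 26.9 kb. Dfd and Scr thus had at most 2 summits in any of the 4 lists.

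Antp, the main thoracic Hox gene and the longest at 103.0 kb, held 10 of the 36 thresholded summits, 2 of which share a peak. Its counts were 31 pooled, 31 in replicate 2 and 29 in replicate 3. Its thresholded density of 0.0971 per kb was the highest of the 8 genes, with an interval of 0.0466 to 0.179 that lies above the 0.0438 of the arm. That interval takes in the 0.05 of the arm without its first 4 Mb, and none of the intervals is adjusted for the 8 spans and 6 stretches between them. In replicate 3, Antp held 7 of the 6075 highest peaks, or 0.068 per kb, and in replicate 2 it held 13, or 0.126 per kb.

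Of the bithorax genes, Ubx, which sets the identity of the haltere-bearing segment, had 2 thresholded summits in 77.8 kb, with 16 pooled, 16 replicate 2 and 15 replicate 3 summits. The span of abd-A, which acts in the anterior abdomen, had 0 thresholded summits in 22.8 kb, with 7 pooled, 6 replicate 2 and 6 replicate 3 summits. Abd-B, which acts in the posterior abdomen and genitalia, had 2 thresholded summits in 45.0 kb, and the same 2 were all that the pooled list held there. Replicate 2 listed 9 summits in Abd-B and replicate 3 listed 2. Per kb, Abd-B was below abd-A in the pooled list (0.0444 against 0.307), in replicate 2 (0.2 against 0.263) and in replicate 3 (0.0444 against 0.263). It was above abd-A in the thresholded list (0.0444 against 0). The counting intervals of Abd-B and abd-A overlap in each list.

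**Figure D2:**
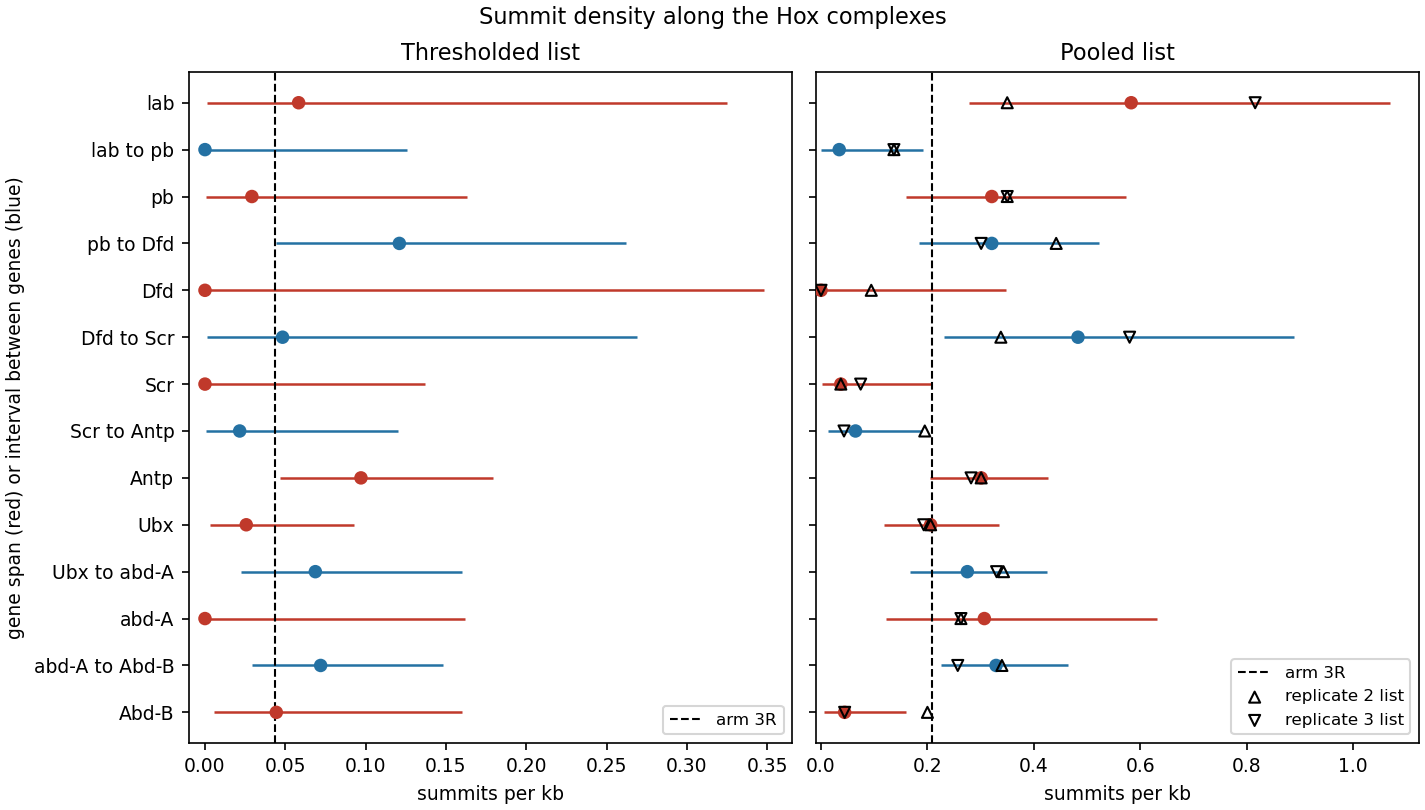
Summits per kb in each Hox gene span (red) and each interval between neighbours (blue), in map order, for the thresholded list (left) and the pooled list (right). Lines are 95% Poisson intervals for counting error, triangles are the replicate lists, and the dashed line is arm 3R (0.0438 and 0.208 per kb). Antp and the pb to Dfd interval have thresholded 95% intervals wholly above the line. Both take in the 0.05 per kb of the arm without its first 4 Mb.

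The intervals between the genes, other genes in them included, varied as widely. From pb to Dfd, 49.8 kb held 6 thresholded summits, 0.121 per kb (0.0442 to 0.262), with 16 pooled, 22 replicate 2 and 15 replicate 3 summits. Of the 6075 highest peaks of a replicate, it held 6 in replicate 2 and 3 in replicate 3, or 0.0603 per kb in the latter. The counting interval of the pb to Dfd stretch, like that of Antp, takes in the 0.05 per kb of the arm without its first 4 Mb. From lab to pb, 29.2 kb held 0 thresholded and 1 pooled summit, and each replicate listed 4. The stretch from Scr to Antp, 46.3 kb, had 1 thresholded and 3 pooled summits, with 9 in replicate 2 and 2 in replicate 3. From Dfd to Scr, 20.7 kb held 1 thresholded summit but 10 pooled ones, with 7 and 12 in the replicates. In the bithorax complex, the 72.8 kb from Ubx to abd-A held 5 thresholded and 20 pooled summits, and the 97.2 kb from abd-A to Abd-B held 7 and 32. Among the 6075 highest peaks of a replicate, the latter stretch held 4 in replicate 2 and 7 in replicate 3. The plot of density shows that most of these thresholded intervals span the arm's value, because each rests on 7 summits or fewer.

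Neighbouring thresholded summits lay a median of 9142 bp apart in the Antennapedia complex and 13651 bp apart in the bithorax complex. The widest gap, 63.1 kb, ran from 6818729 to 6881795 across all of Scr and held 2 pooled, 8 replicate 2 and 5 replicate 3 summits. In the bithorax complex the widest gap, 51.5 kb from 16718091 to 16769588 over the 5′ end of Ubx, held 12 pooled, 13 replicate 2 and 19 replicate 3 summits. The gap at Scr, though longer, thus held fewer lower-ranked summits in each list than the gap at Ubx.

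The Hox spans were then placed among all long genes. Of 1977 protein-coding genes of 10 kb or longer, 1003 (50.7%) held a thresholded summit, and 5 of the 8 Hox genes did. The median thresholded density of the Hox genes was 0.0274 per kb, against 0.0113 over all 1977. In the pooled list the medians were 0.253 for the Hox genes and 0.199 for all. By thresholded density Antp stood at place 363 of 1977, lab at 671, Abd-B at 779, pb at 884 and Ubx at 916, and Dfd, Scr and abd-A tied with all 974 genes at 0. By pooled density the order changed: lab stood at 181, pb at 664, abd-A at 692, Antp at 709, Ubx at 972, Abd-B at 1546 and Scr at 1568. Neighbours in either order have overlapping counting intervals. The place of lab was 510 in replicate 2 and 35 in replicate 3, so its pooled place rests on replicate 3 more than on replicate 2.

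The non-Hox genes of 3R with densities most like the Hox median, by Euclidean distance over log2(summits per kb + 0.05) in the 4 lists, were Cdep (distance 0.252), pros (0.406) and CG17230 (0.406), out of 446 genes compared. Cdep, for example, had 0.0286 thresholded and 0.228 pooled summits per kb. Other clustered gene families were set beside the complexes. The NK homeobox cluster held 5 thresholded summits, at 0.0281 per kb, the Iroquois complex 8 at 0.0617, and the Enhancer of split complex, a cluster of Notch target genes, 10 at 0.191. Their pooled densities were 0.253, 0.463 and 0.574 per kb, so the Hox complexes, at 0.245 together, were close to the NK cluster and below the others in that list.

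Hox promoters mostly lacked thresholded peaks. Across the 19 annotated TSSs of the 8 genes, 1 had a thresholded summit within 500 bp, that of Dfd. Of all 13945 protein-coding genes, 20.4% had such a summit, so 1 gene of 8 is near or below the background, which a count of 8 genes cannot separate. The Dfd summit lay at 6791397, 439 bp upstream of the TSS, in the promoter window shown above (chr3R:6791347-6791447). It ranked 3490 in the pooled list and 2462 in replicate 2, and replicate 3 listed no overlapping peak. The nearest replicate 3 summit was 15039 bp away, so this peak rests on replicate 2 and the pooled call. The other 35 thresholded summits of the complexes each belonged to a peak that overlapped a peak of replicate 3.

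**Figure D3:**
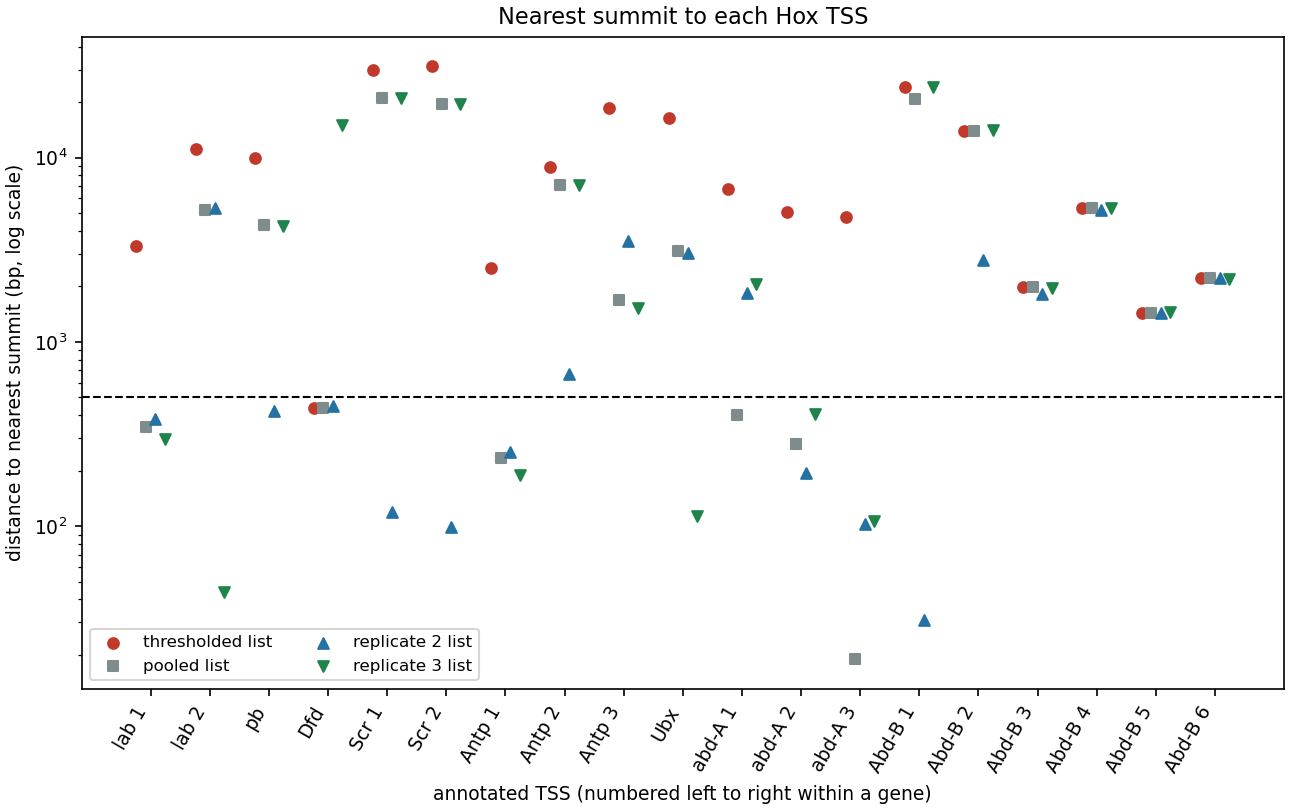
Distance in bp, on a log scale, from each of the 19 annotated Hox TSSs to the nearest summit of each of the 4 lists. The dashed line marks 500 bp. A thresholded summit falls under the line at Dfd only, and the replicate 2 points fall under it at 9 TSSs.

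The plot of TSS distances also shows the longer lists. The pooled list contains the thresholded one, so its nearest summit can only be as near or nearer. The replicate lists were called separately and have no such bound. At the Dfd TSS the nearest replicate 3 summit was 15039 bp away, against 439 bp in the thresholded list. The median distance from a Hox TSS to the nearest summit was 6733 bp in the thresholded list, 2232 bp in the pooled list, 668 bp in replicate 2 and 2051 bp in replicate 3. Pooled summits lay within 500 bp of a TSS of lab, Dfd, Antp and abd-A, 4 of 8 genes against 47.0% of all protein-coding genes. Replicate 2 had such a summit at 7 genes, all but Ubx, and replicate 3 at 4 genes, lab, Antp, Ubx and abd-A. No share of all protein-coding genes is given here for the full replicate lists, so these counts cannot be read against a background. The lists of both replicates therefore shared promoter summits at lab, Antp and abd-A.

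At Antp, the TSS at 6932840, shared by 6 transcripts, had a pooled summit 234 bp upstream that ranked 6492, just under the threshold. Its nearest peak ranked 5045 in replicate 2 and 11895 in replicate 3. At abd-A, the pooled summit lay 19 bp inside the 5′-most TSS and ranked 12242, with replicate summits 103 bp inside and 107 bp upstream. The Ubx TSS had its nearest thresholded summit 16335 bp inside the gene, and only replicate 3 listed a summit close by, 113 bp upstream at rank 14391. The Scr TSSs were the farthest from any thresholded summit, at 29776 and 31252 bp, although replicate 2 listed summits 119 and 99 bp upstream at ranks 16113 and 22893. The 6 Abd-B TSSs lay between 1430 and 24047 bp from a thresholded summit.

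Seen from the peaks, the median distance of the 36 thresholded summits to the nearest Hox TSS was 18189.5 bp, and 7 lay within 5 kb. The nearest TSS of any protein-coding gene was a median of 12171.5 bp away, against 1054 bp for the thresholded summits of 3R. Of the 36, 20 were nearer to a Hox TSS than to that of another protein-coding gene, and 2 were equally near to a TSS that Antp shares with the protein-coding gene CG46458. Introns held 25 summits (69.4%, Wilson interval 53.1 to 82.0), intergenic sequence 6 (16.7%), promoters of any protein-coding gene 3 (8.33%, 2.87 to 21.8) and exons 2 (5.56%). On 3R, promoters held 38.9% and introns 40.2% of thresholded summits.

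The sequence itself is divided differently in the complexes and on the arm. Promoter windows make up 5.38% of the bases of the complexes and 11.3% of 3R, and introns 61.6% and 43.5%. Per kb of promoter sequence the complexes held 0.0853 summits (0.0176 to 0.249), against 0.15 on the arm, a value inside the interval. Per kb of intron they held 0.0622 (0.0402 to 0.0918), against 0.0405 on the arm, a value near the lower end of the interval. The pooled summits of the complexes below the threshold, 124 in all, lay in introns at 67.7%, in intergenic sequence at 13.7%, in exons at 13.7% and at promoters at 4.84%. Of the 25 intronic thresholded summits, 15 lay in a Hox gene and 10 in another gene only.

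**Figure D4:**
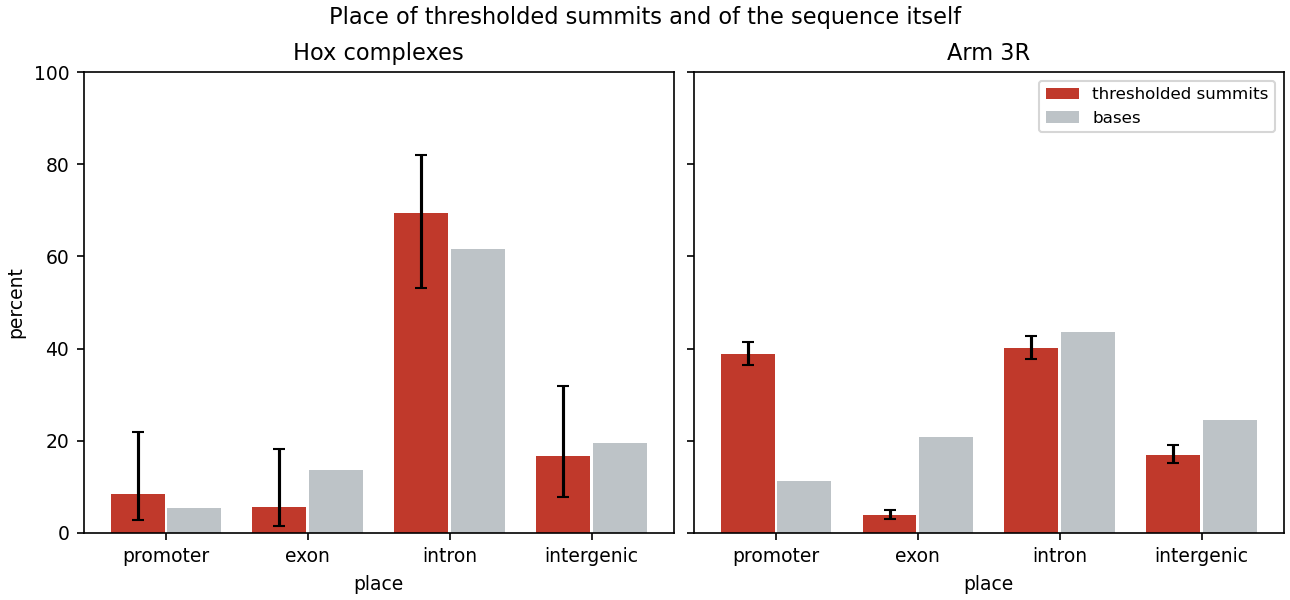
Percent of thresholded summits (red, with Wilson 95% intervals) and percent of bases (grey) in promoters, exons, introns and intergenic sequence, for the Hox complexes (left, 36 summits) and arm 3R (right, 1405 summits). Promoters take 8.33% of the Hox summits and 38.9% of those of 3R, beside 5.38% and 11.3% of the bases.

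The 2 highest peaks of the complexes were nearest to the non-Hox gene Ama. The summit at 6761060, whose window is chr3R:6761010-6761110, had a signal of 1370 and ranked 148 in the pooled list, 114 in replicate 2 and 182 in replicate 3. It lay in intergenic sequence of the pb to Dfd interval, 1533 bp upstream of Ama, which encodes the immunoglobulin-domain protein Amalgam. The same summit also lay upstream of bcd, which is transcribed in the other direction from 6759466, at only a slightly greater distance. The next, at 6763087, ranked 314, with 272 and 420 in the replicates. It lay inside the spans of both Ama and lncRNA:CR45593, 317 bp upstream of an internal TSS of Ama. A further summit of the same interval, at 6759643, lay 177 bp upstream of bcd, which encodes the anterior morphogen Bicoid, and ranked 3738. Summits at 6755623 and 6751988, ranks 5401 and 5845, were nearest to zen, a dorsal patterning gene derived from a Hox gene. Of zen, zen2, bcd, Ama and ftz, the non-Hox homeobox and immunoglobulin genes of the complex, Ama and bcd had a thresholded promoter summit, 2 of 5. None of the 8 cuticle genes of the complex had one, nor a pooled one. Over all protein-coding genes the shares were 20.4% thresholded and 47.0% pooled. Counts this small cannot be separated from the thresholded share.

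Within Antp, the summit at 6903456 (window chr3R:6903406-6903506) ranked 654, with 638 and 753 in the replicates, in an exon of lncRNA:CR43252. The summit at 6912598 ranked 661 but stood at 423 in replicate 2 and 1350 in replicate 3, and it shares its peak with a lower summit 208 bp away, so both are counted from 1 peak. Those at 6936327, 6914562 and 6920200 ranked 1156, 1785 and 2127. Of the 10 Antp summits, 8 also lie in the overlapping annotated gene CG46458. None was closer than 2516 bp to an Antp TSS. Of the 10, 6 were among the higher-ranked 3037 of the thresholded list, near the 49.3% of thresholded summits on 3R.

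The Scr to Antp interval had its single thresholded summit at 6881795 (window chr3R:6881745-6881845), rank 1520, in an intron of lncRNA:CR44931 and 17471 bp from the TSS of ftz, a pair-rule gene. The replicates gave it ranks 1759 and 1434. The Dfd to Scr summit, at 6818729, ranked 2510. The lab summit, at 6667461 (window chr3R:6667411-6667511), was intronic and ranked 5636, with 9032 in replicate 2 and 4124 in replicate 3. The pb summit, at 6723962 (window chr3R:6723912-6724012), was also intronic and ranked 3483.

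In the bithorax complex the highest summits were the 2 in Abd-B introns. The summit at 16958289 (window chr3R:16958239-16958339) had a signal of 577.4 and ranked 785, with 482 in replicate 2 and 1525 in replicate 3, and lay 1992 bp inside the nearest Abd-B TSS. The other, at 16970004, ranked 1908, with 2211 and 1648 in the replicates. The Ubx summits, at 16718091 (window chr3R:16718041-16718141) and 16704440, ranked 3288 and 4267, both intronic.

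All 7 thresholded summits between abd-A and Abd-B lay in introns of lncRNA:iab8, a long transcript that crosses the iab regulatory domains. Its gene covers 92.12 kb of that 97.2 kb stretch, so most positions there fall within it. The span of the overlapping protein-coding gene MSAmiP, 65.18 kb long, held 6 of these 7 summits. The highest of the 7, at 16886777 (window chr3R:16886727-16886827), ranked 2174, with 2034 and 2534 in the replicates. The other 6 ranked between 2630 and 5925. Between Ubx and abd-A, 2 summits lay in introns of lncRNA:bxd, at 16769588 and 16771796, with ranks 3647 and 2448, and those ranks were close in each replicate, at 3757 and 3733 for the first and 2543 and 2572 for the second. The other 3, at 16794371, 16798905 and 16801200, ranked 3168, 4065 and 2999, and the last lay in an exon of lncRNA:CR45750. Counting all annotated non-coding RNA genes, 1 of 21 in the Antennapedia complex and 1 of 11 in the bithorax complex, lncRNA:CR45593 and lncRNA:TS16, had a thresholded summit within 500 bp of its 5′ end, against 7.51% of 3261 non-coding RNA genes on the 6 arms. The Hox-targeting microRNA genes mir-iab-4 and mir-iab-8 were 8871 and 8938 bp from one, and mir-10, between Dfd and Scr, 9147 bp.

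Taking all 36 summits, the median rank was 3373.5 (148 to 5925), against 3084 on 3R. Of the 36, 16 were among the higher-ranked 3037, against 49.3% of thresholded summits on 3R. The medians were 3209 in the Antennapedia complex and 3467.5 in the bithorax complex. Just inside the threshold stood summits of ranks 5837, 5845 and 5925, with signals of 139.4, 139.3 and 137.5. Just outside it stood summits of ranks 6221, 6299 and 6477, in the Dfd to Scr interval, in lncRNA:iab8 and in lab, with signals of 131.4, 129.9 and 126.5.

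Nearly all of the 36 summits, which belong to 35 distinct peaks, had a peak in both replicates: 36 overlapped a peak of replicate 2 and 35 a peak of replicate 3, so 97.2% (85.8 to 99.5) were in both, against 96.8% on 3R. The thresholded list was made from these replicates, so this overlap is not independent of them. Among the 6075 highest peaks of each replicate, 31 and 29 were found, and 25 in both, or 69.4% (53.1 to 82.0), against 72.9% on 3R. Summits were within 100 bp in both replicates at 34 of 36, with a median shift of 24.5 bp in replicate 2 and 14 bp in replicate 3. In the Antennapedia complex 10 summits ranked higher in replicate 2 and 9 in replicate 3, and in the bithorax complex 5 and 11. On 3R, 612 of the 1360 thresholded summits matched in both replicates (45.0%) ranked higher in replicate 2. Counts as small as those of the complexes cannot be separated from that share.

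**Figure D5:**
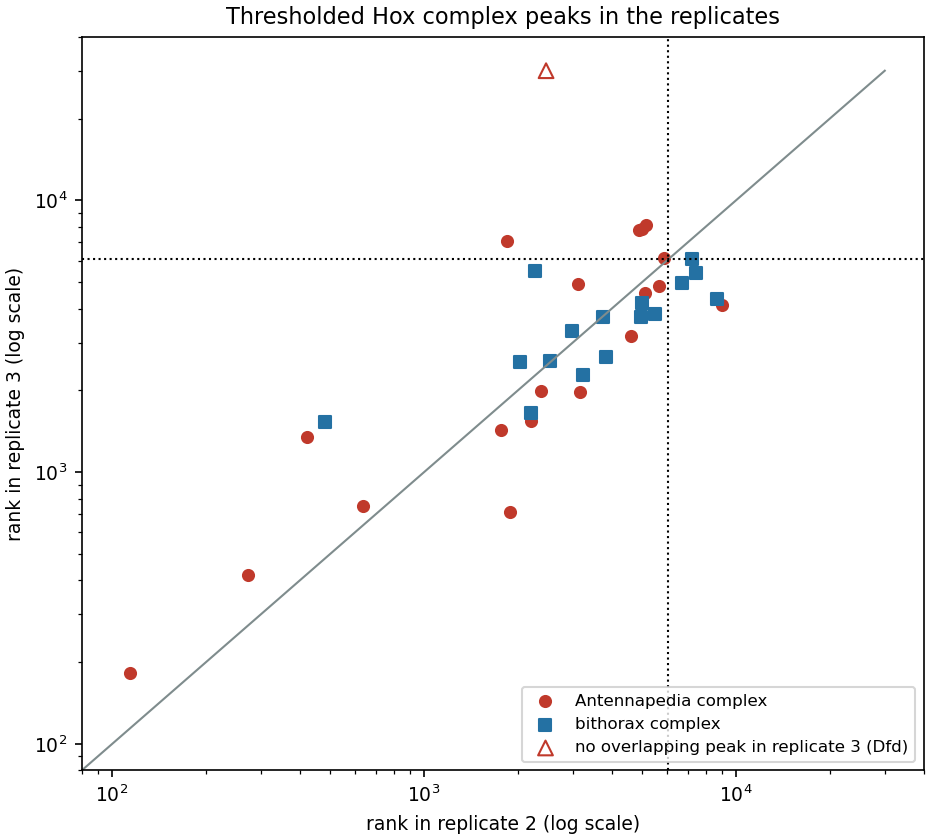
Rank of each of the 36 thresholded summits of the complexes in replicate 2 and in replicate 3, on log scales, with rank 1 the highest signal. Dotted lines mark rank 6075 in each replicate, the diagonal marks equal rank, and the open triangle at the top, drawn at the end of the list, is the Dfd promoter peak with no overlapping peak in replicate 3. Of the points, 25 lie within both dotted lines.

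Some replicate peaks of the complexes stood among the highest 6075 of a single replicate without a thresholded counterpart. Replicate 2 had 6 of these among its 39 leading summits in the complexes. They lay at the Antp TSS named above (6933094 and 6933298, ranks 5045 and 5368), elsewhere in Antp, in lab, in the Dfd to Scr interval and in lncRNA:iab8. Replicate 3 had 3 among 33, in abd-A, Ubx and lab. No such share is given here for the arm, so these counts cannot be read against a background. The lab peak, at 6674758, ranked 3831 in replicate 3 and overlapped no peak of replicate 2 or of the pooled list.

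Short motifs were searched within 50 bp of the summits on both strands. GAGAG, bound by GAGA factor, was in 4 of 36 windows (11.1%), against 8.04% of 3R summit windows and 16.7% of the Hox flanks. GCCAT, the core of the Pho site, was in 6 (16.7%), against 11.5% on 3R and 31.9% of the Hox flanks. TAATTA, a homeodomain core, was in 3 (8.33%), the Dfd promoter, a lncRNA:bxd summit and 16801200, against 11.4% on 3R and 5.56% of the flanks. These shares have wide intervals, since each rests on a few windows. Summit and flank windows of the complexes also differ in mean GC content, 32.3% against 43.7%. How far base composition shifts the motif shares here and below was not tested.

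CAGGTAG, the Zelda site, was in 2 windows, near zen at 6755623 and at 16798905 between Ubx and abd-A, which is 5.56% (1.54 to 18.1) against 0.641% on 3R and 1.39% of the flanks. The CTCF consensus AGNNGGCGC was also in 2, both in lncRNA:iab8 at 16834838 and 16886777, against 1.49% on 3R and 1.39% of the flanks. ATTTAAAA, made of A and T only, was in 4 (11.1%), at bcd, at Ama, at 16794371 and at 16838008. It was in 7.19% of windows on 3R and in 1.39% of the flanks, which are richer in GC. TATCGATA, the DNA replication-related element, and CATATG were in 0 of 36 windows, against 1.21% and 3.7% on 3R. An AGNNGGCGC match can contain GCCAT on the other strand, and both CTCF windows also held GCCAT. In the window at 16886777, shown above, the 2 matches lie apart and do not overlap.

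Genes that act on Hox genes or with them are scattered over the genome, and their promoters were counted by the same 500 bp rule, against the 20.4% of all protein-coding genes. Of 11 segmentation genes that set Hox domains (hb, Kr, kni, gt, tll, ftz, eve, hry, opa, odd and run), 0 had a thresholded promoter summit and 7 a pooled one, where the pooled share of all genes is 47.0%. Of 5 cofactors (exd, hth, tsh, disco and disco-r), 0 had a thresholded one and 4 a pooled one. The span of hth, which encodes a homeodomain partner of Hox proteins, held 10 thresholded and 87 pooled summits. These counts were not set against the length of hth. Of 19 maintenance factors of the Polycomb and Trithorax groups, 8 (42.1%) had a thresholded promoter summit and 15 a pooled one. The highest of these were at ph-p, a Polycomb group gene (rank 23), at E(z), which encodes the histone H3 methyltransferase of the Polycomb system (222), and at brm, which encodes a chromatin remodelling ATPase (377). Of 9 targets of Hox proteins, Antp itself included, 2 had a thresholded one, the limb gene Dll and the cell death gene rpr, and all 9 a pooled one.

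The complexes end between genes that are not Hox. The nearest protein-coding genes outside them were agt and Sodh1 beside the Antennapedia complex and modSP and VhaM9.7-d beside the bithorax complex. Of these, agt had a thresholded summit 58 bp from its TSS, and the others lay 2047, 8531 and 5200 bp from one.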

How the data were processed

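The deposited data are narrowPeak lists on dm6: 1 per replicate, 1 for the pooled replicates and 1 thresholded by irreproducible discovery rate, per the labels and accompanying notes, which also state that a control alignment was used. Neither the aligner nor the peak caller nor the threshold is given in the sources used here. Each peak's signal is the authors' deposited value on an unstated scale, used for ranks within a list. All 6075 thresholded peaks are lines of the pooled list and its 6075 highest by signal. The other 3 lists hold exactly 30000 peaks each, so their length does not measure binding, and they carry no read totals.

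A summit is the peak's start plus its offset, written 1-based. Genes were those of Ensembl release 115, and bases were read from RefSeq's Release 6 genome, the assembly behind dm6. Of 17682 genes matched by symbol between those sources, 99.99% had identical coordinates, all 8 Hox genes among them, and 0 peaks ran past a chromosome end. A summit was placed in a promoter (within 500 bp of a protein-coding TSS), else an exon, an intron or intergenic sequence. Negative distances are upstream. Peaks were matched between lists by an overlap of at least 1 bp. Densities carry exact Poisson intervals and shares Wilson intervals at 95%. Python 3.11.15, pandas 2.3.3, numpy 2.4.6 and SciPy 1.17.1 were used. Region counts, Poisson intervals and motif reading on both strands were tested on simulated data with independent positions. The other statistics were not tested in that way.

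With 1 group there was nothing to test between conditions, and no p-value was computed. Nothing in the labels says how far the 2 replicates are separate collections, so their spread may be partly technical. The Hox genes, gene lists, motifs and comparisons were chosen with earlier results of these data known. Named peaks were the 10 of highest signal in the complexes, the highest of each span and interval and the nearest 3 below the threshold, and from each gene list at most the 3 members of highest promoter signal, besides the members spelled out with it. Other Antennapedia and bithorax summits named beside these, the peaks leading in a single replicate and the motif holders were named after their values were seen. The symbol h was read as hry. Alternatives varied the list, the replicate, the bounds, the promoter window, the overlap rule and the sequence window.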

Additional observations from a re-analysis of the deposited data

How the results depend on the processing

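Of 94 alternative values, 71 stayed within their counting interval or spread, or within 1.5 times for counts of genes. No paired analysis was possible because the study has a single group and no test was made. Restricting the thresholded list to its higher-ranked 3037 peaks lowered the density, by construction, to 0.0296 per kb in the Antennapedia complex, 0.019 in the bithorax complex and 0.0245 in both, and the ratio to the arm then fell to 0.881 for the bithorax complex. The count of Hox genes with a thresholded promoter summit, 1, was 0 with a 250 bp window and 0 with the higher-ranked 3037 peaks. It was 4 in the pooled list, and it ranged from 0 without replicate 2 to 2 without replicate 3 (Dfd and Antp). The share of all protein-coding genes, 20.4% in the main setting, was 15.9% with that window and 47.0% in the pooled list. That share was lower still with the higher-ranked 3037 peaks, 21.3% without replicate 2 and 20.3% without replicate 3. Counts out of 8 genes cannot separate the Hox genes from these shares. The share of complex peaks found in both replicates, 97.2%, was 61.1% at a reciprocal overlap of 50% and 69.4% among the leading peaks of each replicate. The promoter share was 2.78% with a 250 bp window, and the exon share, 5.56%, was 0.0% with replicate 3 left out, 3.03% with replicate 2 left out and 13.7% in the pooled peaks below the threshold. The cause of these shifts was not tested. Over 100 bp to each side of the summit, GAGAG was in 30.6% of windows, against 34.7% of flanks and 21.1% on 3R. The limits are a single tagged line without a second condition, unknown depth, an unstated signal scale and a thresholded list made from the same 2 replicates.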
